A study of Mus musculus with 30 samples.

Results

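The interferon-induced genes are 41 genes whose transcripts rise when cells sense type I or type II interferon. They were chosen by name, as every probe whose gene name in the scanner files was that of a member, and 55 probes carried the 41 names. All 41 genes were among the 23268 genes that passed the filter on dim probes, and each is represented by its brightest probe. RNA of mouse aorta was measured on 30 one-colour arrays, 3 in each of 10 groups, and the study used these groups to ask what B cells contribute to an aneurysm induced by calcium chloride (CaCl2). The arrays came from wild type (WT) mice and from uMT mice, which lack B cells, either with no operation, 7 or 42 days after a sham operation with saline around the aorta, and 7 or 42 days after 0.5 M CaCl2 was put there in its place. Both genotypes carry the strain label C57BL/6, and the tissue of every array is labelled abdominal aortic aneurysm, unoperated and sham aortas included. The uMT allele disrupts the membrane form of the immunoglobulin mu heavy chain in all cells of the mouse, and the labels give no other allele. They give neither age nor sex, nor whether an array held 1 mouse or several, so p-values measure the spread between arrays.

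Interferons act through the receptors Ifnar1 and Ifnar2 (type I) or Ifngr1 and Ifngr2 (type II), which signal by Jak kinases to the Stat factors. Type I interferon assembles a complex with Stat2 and Irf9 that binds the interferon-stimulated response element (ISRE), and type II interferon acts mainly through the gamma-activated site (GAS). The products detect or degrade viral RNA, block virus entry and release, tag proteins with Isg15, cut and load peptides for MHC class I and recruit T cells. In an aortic wall that is injured and repaired, macrophages and other leukocytes as well as the resident smooth muscle, endothelial cells and fibroblasts can carry this response.

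RefSeq promoter windows of build GRCm38.p6, from 250 bases before to 50 after a gene's start, were found for 34 of the 41 members. The ISRE core, searched as GAAA, any 2 bases and GAAA again on both strands, was in a window of 16 of the 34 (47.1%), against 3.99% of the 27025 genes with a window. The GAS, searched as TTCNNNGAA, which reads the same on both strands, was in 12 of 34 (35.3%), against 9.55% of all genes. At least 1 of both motifs was in 23 of 34 members and 12.9% of all genes, and 5 members held both. Of the 9 members that were lower in uMT mice on average over conditions, 8 had a window and 3 of these held an ISRE core, against 13 of the other 26 members with a window. The windows of these 3, Ifit1 at chr19:34640639-34640938 (plus strand), Oas3 at chr5:120777610-120777909 (minus strand) and Isg15 at chr4:156200769-156201068 (minus strand), are shown because they are the lower members with the element. They run 5′ to 3′ along the gene, with ISRE cores in capitals.
Ifit1: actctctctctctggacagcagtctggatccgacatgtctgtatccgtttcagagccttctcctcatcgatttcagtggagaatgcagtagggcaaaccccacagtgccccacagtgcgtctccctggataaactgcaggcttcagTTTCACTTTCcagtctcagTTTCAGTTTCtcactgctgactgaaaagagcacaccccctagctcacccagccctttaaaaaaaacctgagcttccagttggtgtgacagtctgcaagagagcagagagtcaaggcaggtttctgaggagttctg
Oas3: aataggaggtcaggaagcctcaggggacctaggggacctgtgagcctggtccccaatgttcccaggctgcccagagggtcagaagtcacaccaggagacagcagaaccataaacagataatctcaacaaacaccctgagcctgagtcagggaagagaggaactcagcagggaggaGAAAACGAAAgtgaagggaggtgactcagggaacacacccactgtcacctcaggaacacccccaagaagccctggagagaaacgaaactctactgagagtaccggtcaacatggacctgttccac
Isg15: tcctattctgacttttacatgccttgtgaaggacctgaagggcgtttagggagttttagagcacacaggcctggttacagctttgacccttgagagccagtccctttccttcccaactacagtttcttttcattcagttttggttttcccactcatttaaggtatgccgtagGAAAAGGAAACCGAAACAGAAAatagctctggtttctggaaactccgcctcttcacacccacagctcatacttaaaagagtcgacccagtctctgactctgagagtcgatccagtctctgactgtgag
Ifit1 held 2 cores on the opposite strand, whose first bases lay at -104 and -85 from the start. Oas3 held 1 core at -75, and Isg15 held 3 overlapping cores at -78, -72 and -66. A match of letters describes the sequence and does not show that a factor bound it.

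In build mm9, which the files use, the probes of the 9 lower members lie at chr7:148450664-148451014 (Irf7), chr19:34723796-34723855 (Ifit1), chr19:34650244-34650303 (Ifit2), chr11:101319011-101319070 (Ifi35), chr11:72122169-72122228 (Xaf1), chr2:173039307-173039366 (Zbp1), chr5:121203598-121203657 (Oas3), chr4:155573649-155573708 (Isg15) and chr17:34330854-34330913 (Tap1). Which exon or UTR each probe covers was not analysed here. Levels below are log2 signals relative to the 75th percentile of the same array, so 0 is that percentile and 1 unit is a factor of 2. A difference is the uMT mean minus the WT mean on this scale, ± its standard error in the fitted model, and each group has n = 3. It was called at an adjusted p under 0.05 over all 23268 genes in that comparison. Between 36.9% and 62.8% of an array's spots were well above background, and 20 of the 41 members were so on all 30 arrays. The 36.9% belonged to WT sham day 42 replicate 2, which lay alone on its slide and scan day. It correlated with its group mates at a mean r of 0.722 over all genes, whereas those 2 correlated with each other at 0.981 and arrays of the other groups with their own mates at a mean of 0.950 or more. Counts of called members are therefore given with and without that array. The other arrays lay on 4 slides, none of which held both genotypes of 1 condition, so genotype and slide cannot be told apart within a condition. Besides WT sham day 42 replicate 2, all arrays with under 50% of spots well above background were of uMT mice. These were unoperated replicate 2 (43.6%), sham day 42 replicates 2 and 3 (48.8% and 46.8%) and CaCl2 day 42 replicates 1 and 2 (44.3% and 49.5%). Low signal and uMT genotype thus partly go together at day 42, and the part of signal strength was not tested.

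Averaged over the 5 conditions, 9 of the 41 interferon-induced genes were called, all lower in uMT than in WT aorta, against 2.97% of all genes (1.71% lower). The median difference of the members lay below that of all genes in the 4 operated conditions but not in unoperated aorta. These were Irf7, Ifit1, Ifit2, Ifi35, Xaf1, Zbp1, Oas3, Isg15 and Tap1, with differences from -1.24 to -0.55. The median difference of all 41 was -0.43, with 38 below 0, while the median of all genes was 0.023 and 46.3% of them were below 0. When WT sham day 42 replicate 2 was left out, 24 members were called, 23 lower and Gbp6 higher, against 25.9% of all genes (13.4% lower), and the median was -0.59. The other kept probe of Gbp6 was at -1.34 ± 0.40 in that fit. With slide as a random block no member was called, against 2 genes in all, although the median of the members was -0.58. The same block without WT sham day 42 replicate 2 gave 33 called members, against 45.7% of all genes. The within-slide correlation was 0.782 with that array and -0.0687 without it.

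**Figure D1:**
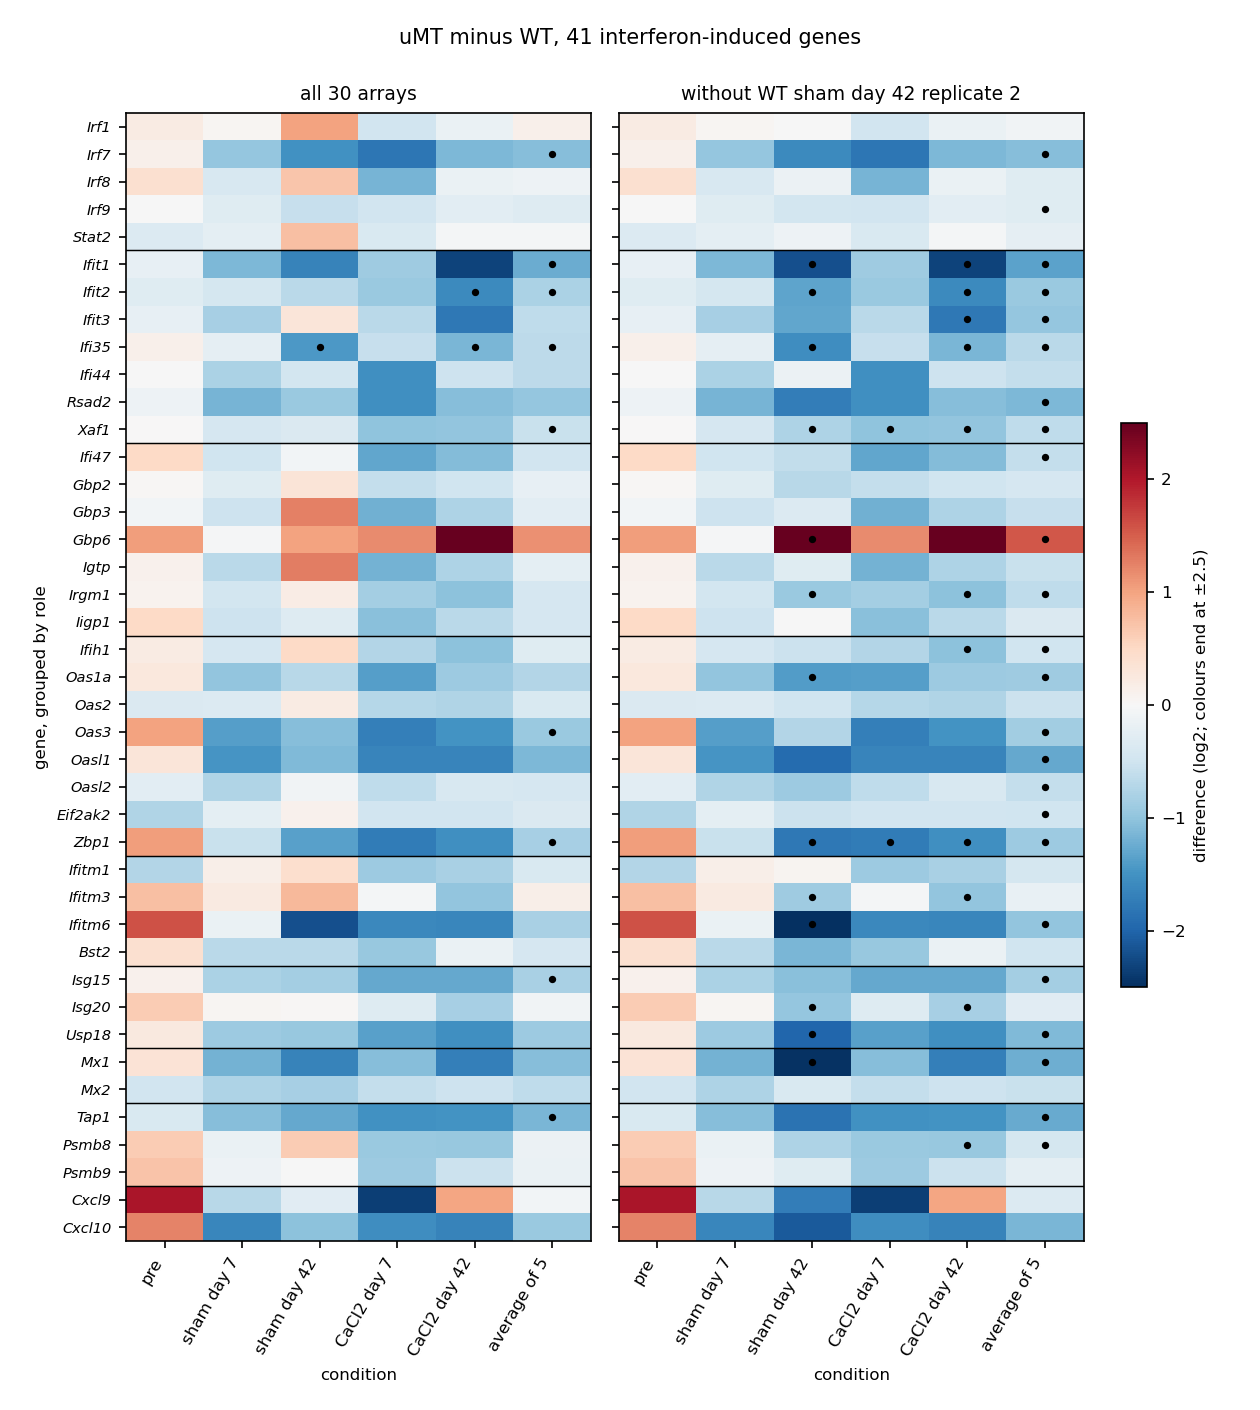
Difference between uMT and WT aorta (log2, colour) for the 41 interferon-induced genes in each of 5 conditions and on average, grouped by role, with all 30 arrays (left) and without WT sham day 42 replicate 2 (right). Dots mark an adjusted p under 0.05. The unoperated column is mostly pale or red and the 2 CaCl2 columns are mostly blue, where 40 and 39 of 41 differences are below 0.

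Condition by condition, the members' distribution shifted while few single genes were called. Before operation no member was called (0.0903% of all genes were) and 3 had an unadjusted p under 0.05. The median difference was 0.13, close to the 0.10 of all genes, and 14 members were below 0. This median changed sign with slide in the model, to -0.85 as a fixed block and -0.37 as a random block, with 0 called in both. The fixed block joined the genotypes only through single arrays. These were WT sham day 42 replicates 1 and 3, which lay on different slides, and unoperated uMT replicate 1 on the slide of the latter. The random block used a within-slide correlation of 0.782, which was -0.0687 without WT sham day 42 replicate 2. After sham operation at day 7 no member was called (0.0172% of all genes), 1 had an unadjusted p under 0.05, and the median was -0.51 with 37 members below 0, against 0.025 for all genes. After CaCl2 at day 7 none was called either (0.219% of all genes), 17 had an unadjusted p under 0.05, and the median was -0.94 with 40 below 0, against -0.028 for all genes. After CaCl2 at day 42, Ifi35 and Ifit2 were called (1.31% of all genes), the median was again -0.94 with 39 below 0, and all genes had a median of -0.051. At sham day 42 only Ifi35 was called, as lower (4.13% of all genes, 2.37% lower), with a median of -0.33 and 25 below 0. With slide as a random block 0 members, and 0 of all genes, were called at sham day 42 and at CaCl2 day 42. Slide as a fixed block gave 0 called members at sham day 42 (0.0258% of all genes). Without the 6 arrays with under 50% of spots well above background, 0 members were called at sham day 42 and at CaCl2 day 42 (0.202% and 1.13% of all genes). At CaCl2 day 7 that alternative gave 10 called members (4.68% of all genes). Single arrays moved these counts. The CaCl2 day 42 count was 1 without WT CaCl2 day 7 replicate 2, WT CaCl2 day 42 replicate 1, uMT unoperated replicate 1 or uMT CaCl2 day 42 replicate 3. It was 0 without any 1 of the unoperated WT arrays, the sham day 7 arrays of both genotypes, WT CaCl2 day 7 replicates 1 and 3, WT CaCl2 day 42 replicates 2 and 3 or uMT CaCl2 day 42 replicates 1 and 2. The sham day 42 count was 0 without uMT sham day 42 replicate 2 or 3, 2 without WT sham day 42 replicate 3 and 3 without replicate 1 of that group in either genotype. The CaCl2 day 7 count was 5 without uMT CaCl2 day 7 replicate 1.

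Leaving out WT sham day 42 replicate 2 changed the sham day 42 comparison most. There 13 members were then called, 12 lower and Gbp6 higher, against 33.3% of all genes (18.7% lower), and the median was -0.90 against -0.019 for all genes. CaCl2 day 42 gave 11 called, all lower, against 15.4% of all genes, and CaCl2 day 7 gave 2, Zbp1 and Xaf1, against 1.94%. The unoperated and sham day 7 comparisons still gave 0 of 41, against 6.87% and 0.0215%, with 6 and 4 members at an unadjusted p under 0.05.

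The arrays of the genotypes separated for different numbers of members in each condition. In unoperated aorta all uMT arrays lay below all WT arrays for 2 members (8.53% of all genes) and above them for 5 (17.5% of all genes). At sham day 7 they lay below for 18 of 41, against 6.15% of all genes, and above for none. In the CaCl2 day 7 groups they lay below for 22 of 41 (13.2% of all genes) and above for none. In those of CaCl2 day 42 they lay below for 28 of 41 (21.6% of all genes) and above for 1, Gbp6 (13.4% of all genes). At sham day 42 they lay below for 2 (6.17% of all genes) and above for none. Without the array that stands apart they lay below for 14 there (29.2% of all genes), a share near that of all genes, and above for Gbp6 (23.7% of all genes).

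**Figure D2:**
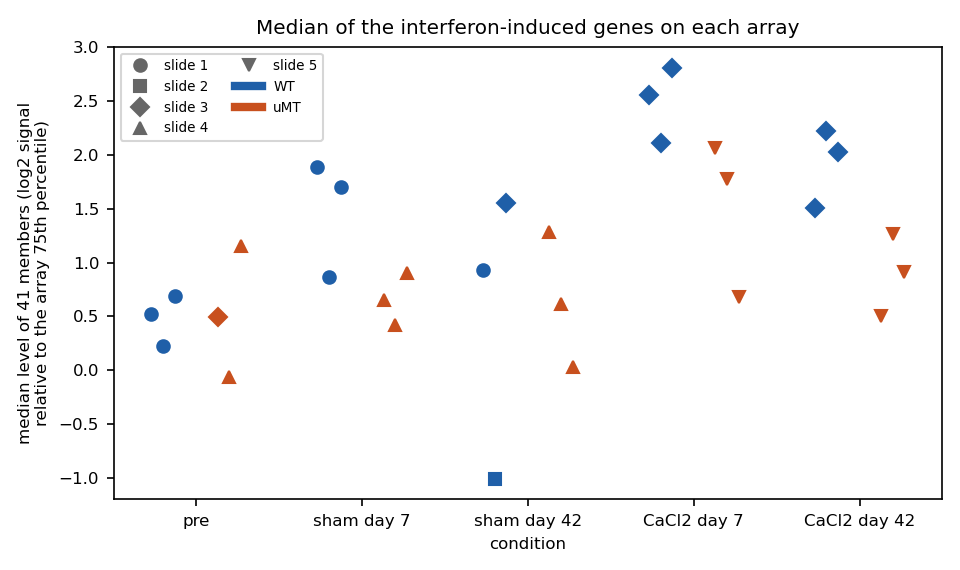
Median level of the 41 members on each of the 30 arrays (log2, with the array's 75th percentile at 0), by condition, with WT in blue, uMT in orange and 1 symbol per slide. WT arrays run from 0.22 to 0.69 before operation and from 2.12 to 2.81 after CaCl2 at day 7, and the lowest point, -1.01, is WT sham day 42 replicate 2.

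The median member level on each array shows these shifts without a test. Unoperated WT aorta gave 0.52, 0.22 and 0.69, and unoperated uMT aorta gave 0.49, -0.059 and 1.16, so the genotypes overlapped. At sham day 7 WT arrays gave 1.89, 0.87 and 1.70 and uMT arrays 0.66, 0.42 and 0.90, with 1 WT array inside the uMT range. At sham day 42 WT arrays gave 0.93, -1.01 and 1.56 and uMT arrays 1.28, 0.61 and 0.034, and the genotypes overlapped also without the array at -1.01. After CaCl2 at day 7 the WT arrays, at 2.55, 2.12 and 2.81, all lay above the uMT arrays, at 2.06, 1.78 and 0.68. The same order was seen after CaCl2 at day 42, with 1.51, 2.23 and 2.02 in WT and 0.51, 1.27 and 0.91 in uMT.

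Among the 5 regulators, Irf1, Irf7, Irf8, Irf9 and Stat2, only Irf7 was called in the average with all arrays. Without WT sham day 42 replicate 2 Irf9, the DNA-binding part of the type I complex, was called lower as well, at -0.30 ± 0.095 (adjusted p = 0.0247). Irf7 is the transcription factor that amplifies type I interferon production, and its own gene is interferon-induced. In WT aorta its level was -3.18, -3.02 and -1.89 before operation, -0.52, -1.08 and -0.35 at sham day 7 and -2.09, -1.32 and -0.13 at sham day 42. After CaCl2 it was 0.064, 0.33 and 1.32 at day 7 and -1.52, -0.29 and -0.62 at day 42. Of the 12 operated WT arrays, 11 lay above every unoperated one. In uMT aorta it was -2.74, -3.14 and -1.83 before operation, -2.15, -1.54 and -1.18 at sham day 7 and -2.94, -2.27 and -2.90 at sham day 42. CaCl2-treated uMT aorta had -0.37, -0.85 and -2.46 at day 7 and -1.47, -1.71 and -2.63 at day 42. The genotypes overlapped before operation and at CaCl2 day 42, and all uMT arrays lay below all WT arrays in the other 3 conditions. The average difference was -1.06 ± 0.24 (adjusted p = 0.0200), or -1.07 ± 0.25 without WT sham day 42 replicate 2 (adjusted p = 0.00619).

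Irf8, which also directs the development of monocytes and dendritic cells, is described for its response to CaCl2. WT levels were -0.36, -0.19 and -0.21 before operation, 2.02, 2.21 and 1.84 at sham day 7 and 1.29, -1.44 and 0.85 at sham day 42. They were 3.08, 3.35 and 3.24 after CaCl2 at day 7 and 2.75, 2.69 and 3.41 at day 42. Every CaCl2 array of WT mice was above every sham array. The uMT levels were 0.35, -0.088 and 0.20 before operation, 1.62, 1.88 and 1.35 at sham day 7 and 2.03, 0.75 and 0.016 at sham day 42. After CaCl2 they were 2.94, 1.81 and 1.45 at day 7 and 2.79, 2.94 and 2.61 at day 42. The day 42 arrays did not overlap with sham in either genotype. After CaCl2 at day 42 Irf8 rose by 2.72 ± 0.51 in WT (adjusted p = 0.00170) and by 1.85 ± 0.51 in uMT aorta (adjusted p = 0.0281). The WT rise was 1.88 ± 0.41 when WT sham day 42 replicate 2 was left out (adjusted p = 0.00593). The genotype difference of Irf8 was -0.13 ± 0.23 on average and not called (adjusted p = 0.850).

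The IFIT and related genes were Ifit1, Ifit2, Ifit3, Ifi35, Ifi44, Rsad2 and Xaf1, and 4 of these 7 were called lower (1.71% of all genes). Their median average difference was -0.66, and 6 of 7 were called lower without WT sham day 42 replicate 2 (13.4% of all genes). Ifit1 binds viral RNA caps and keeps the RNA from being translated. Its WT levels were -2.06, -2.002 and -0.95 in unoperated aorta, -0.24, -0.42 and 1.20 at sham day 7 and -0.33, -0.95 and 1.57 at sham day 42. CaCl2 arrays of WT mice gave 1.59, 1.52 and 1.72 at day 7 and -0.083, 2.23 and 1.23 at day 42. The day 7 CaCl2 arrays lay above all sham day 7 arrays, and 11 of the 12 operated WT arrays lay above every unoperated one. In uMT mice the levels were -2.30, -2.40 and -0.92 in unoperated aorta, -1.502, -0.67 and -0.65 at sham day 7 and -0.93, -1.21 and -2.57 at sham day 42. They were 1.72, 1.21 and -0.77 after CaCl2 at day 7 and -1.17, -1.03 and -1.38 at day 42. All uMT arrays lay below all WT arrays at sham day 7 and CaCl2 day 42. The average difference was -1.24 ± 0.30 (adjusted p = 0.0270), or -1.34 ± 0.30 without the array that stands apart (adjusted p = 0.00475). At CaCl2 day 42 it was -2.32 ± 0.68, not called with all arrays (adjusted p = 0.0843) and called without that one (adjusted p = 0.0219).

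Ifit2, an RNA-binding relative of Ifit1, was the member whose call held in most alternatives, 40 of 41. Of these alternatives 30 left out a single array, and the call was lost with slide as a random block. WT levels were 0.28, 0.22 and 0.026 before operation, -0.11, -0.29 and -0.20 at sham day 7 and -0.063, -1.57 and 0.84 at sham day 42. They were 0.33, 0.27 and -0.014 after CaCl2 at day 7 and -0.021, 0.42 and 0.50 at day 42. Among WT arrays the -1.57 of sham day 42 replicate 2 stood alone. Levels in uMT mice were -0.14, -0.059 and -0.17 before operation, -0.41, -0.96 and -0.57 at sham day 7 and -0.61, -1.57 and -0.63 at sham day 42. After CaCl2 they were -0.81, -0.19 and -1.23 at day 7 and -1.17, -1.55 and -1.15 at day 42. No uMT array reached the WT range in 4 of the 5 conditions, the unoperated one included, and sham day 42 joined them without the array that stands apart. Ifit2 differed by -0.79 ± 0.17 on average (adjusted p = 0.0161) and by -1.59 ± 0.39 at CaCl2 day 42 (adjusted p = 0.0421). Leaving out WT sham day 42 replicate 2, the average was -0.92 ± 0.12 (adjusted p = 0.000159) and the CaCl2 day 42 call had an adjusted p of 0.00104.

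Ifi35, a leucine zipper protein that binds its partner Nmi, was called higher after operation in neither genotype. In WT aorta it stood at 1.92, 2.04 and 1.79 before operation, 2.13, 1.97 and 2.001 at sham day 7 and 1.97, 1.88 and 2.42 at sham day 42. CaCl2 arrays had 1.72, 1.30 and 1.59 at day 7 and 1.51, 1.59 and 2.18 at day 42. The 12 operated WT arrays lay on both sides of the unoperated ones. In uMT aorta it stood at 2.32, 1.74 and 2.05 before operation, 1.84, 1.85 and 1.75 at sham day 7 and 1.29, 0.61 and 0.034 at sham day 42. CaCl2 arrays of uMT mice had 0.72, 1.48 and 0.68 at day 7 and 0.50, 0.41 and 0.91 at day 42. Both day 42 groups of uMT mice were below every WT array, and sham day 7 was just below its WT group. Ifi35 had the smallest adjusted p of all members in the average, at -0.65 ± 0.12 (adjusted p = 0.00696). It was called at sham day 42 with -1.44 ± 0.28 (adjusted p = 0.00766) and at CaCl2 day 42 with -1.15 ± 0.28 (adjusted p = 0.0396). These had adjusted p of 0.00204, 0.00169 and 0.00733 without WT sham day 42 replicate 2, and all 3 calls were lost with slide as a random block. After CaCl2 at day 7 the uMT response was -0.85 ± 0.28, called only without that array (adjusted p = 0.135 and 0.0446).

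Xaf1 binds the apoptosis inhibitor XIAP. Its WT levels were 1.499, 1.41 and 1.98 before operation, 2.56, 2.34 and 2.03 at sham day 7 and 1.77, 1.02 and 2.74 at sham day 42. WT aorta after CaCl2 had 2.90, 2.87 and 2.84 at day 7 and 2.13, 2.62 and 2.60 at day 42. The uMT levels were 1.76, 1.35 and 1.80 before operation, 1.73, 1.88 and 2.07 at sham day 7 and 1.52, 1.93 and 0.999 at sham day 42. CaCl2-treated uMT aorta had 2.19, 1.89 and 1.53 at day 7 and 1.35, 1.69 and 1.35 at day 42. The genotypes separated fully after CaCl2 at both times and overlapped elsewhere. The average difference of Xaf1 was -0.55 ± 0.14 (adjusted p = 0.0356), or -0.63 ± 0.12 without WT sham day 42 replicate 2 (adjusted p = 0.00235). Its other kept probe gave -0.36 ± 0.18, and the call was lost with the mean of a gene's kept probes. Ifit3, Ifi44 and Rsad2 were not called with all arrays, at -0.64 ± 0.36, -0.66 ± 0.28 and -0.97 ± 0.39. Without that array Ifit3 and Rsad2 were called lower (adjusted p = 0.00541 and 0.0339) and Ifi44 was not (adjusted p = 0.125).

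**Figure D3:**
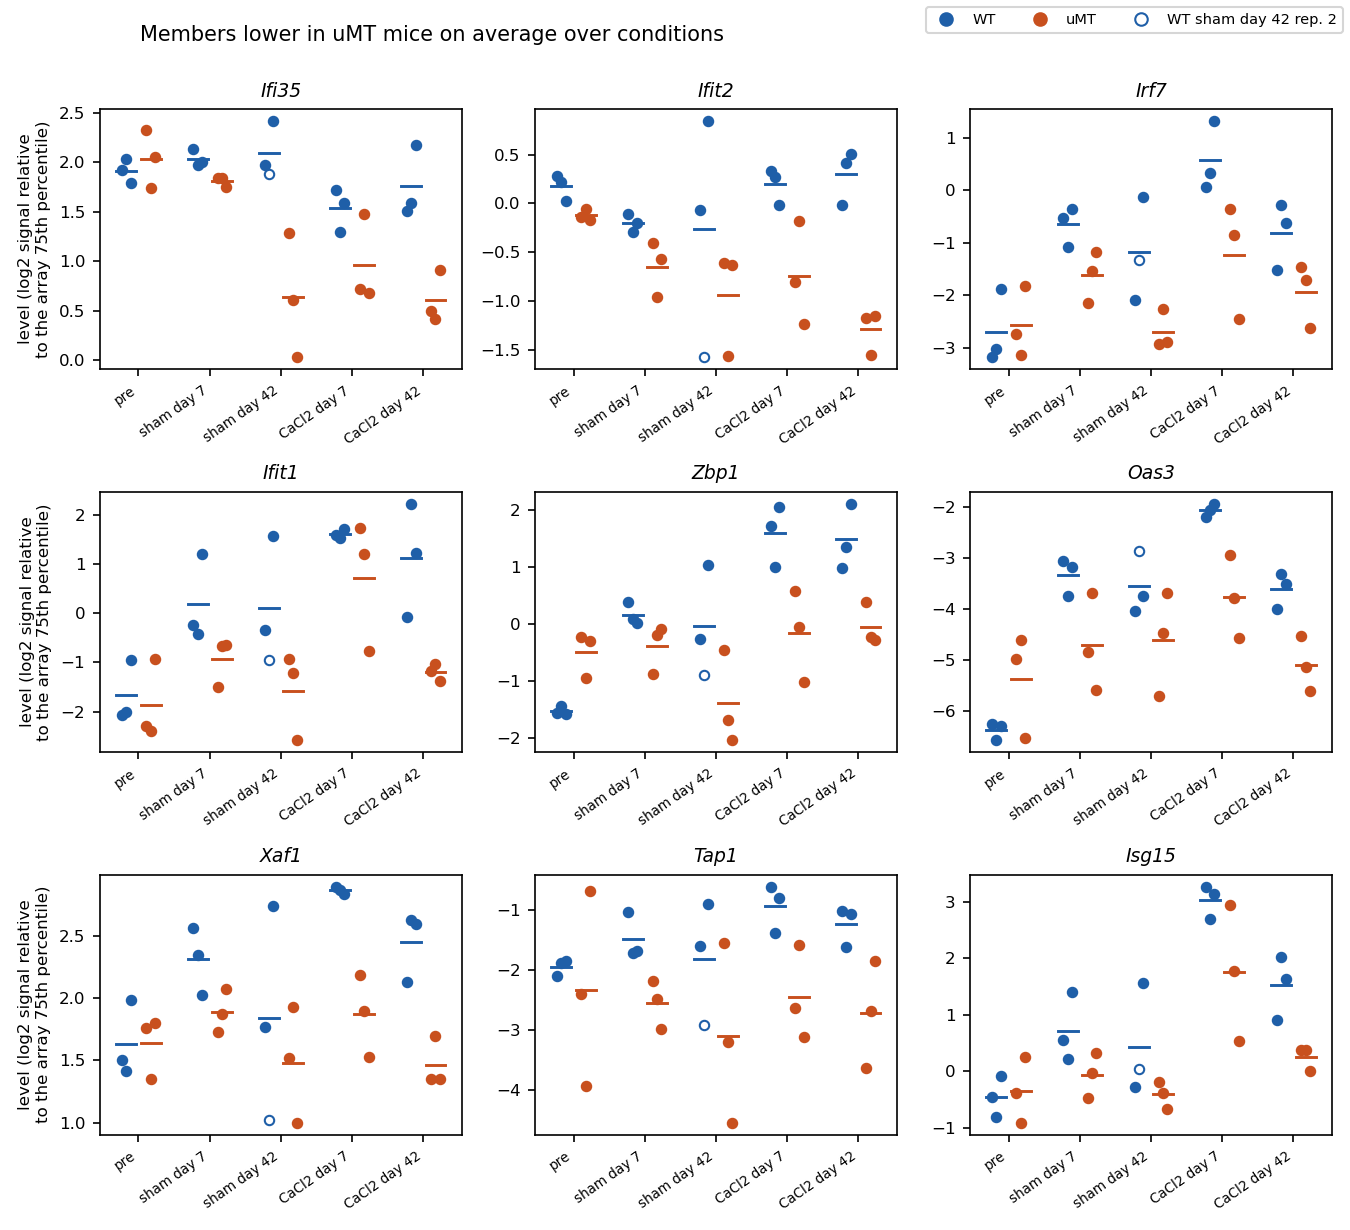
Level of the 9 members called in the average genotype difference on every array (points; log2, with the array's 75th percentile at 0) with the mean of each group of 3 (bars), WT in blue and uMT in orange. The open point is WT sham day 42 replicate 2, and WT and uMT points overlap before operation in 7 of the 9 panels.

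The nucleic acid sensors and effectors were Ifih1, Zbp1, Oas1a, Oas2, Oas3, Oasl1, Oasl2 and Eif2ak2. Zbp1 and Oas3 were called lower on average (1.71% of all genes), and the median of the 8 was -0.58. Without WT sham day 42 replicate 2, 7 of 8 were called lower (13.4% of all genes). Zbp1 recognises nucleic acids in the Z form and can trigger necroptosis. WT levels were -1.58, -1.44 and -1.59 before operation, 0.38, 0.08 and 0.022 at sham day 7 and -0.26, -0.90 and 1.03 at sham day 42. After CaCl2 WT levels were 1.73, 1.01 and 2.06 at day 7 and 0.99, 1.35 and 2.12 at day 42. Every operated WT array was above every unoperated one, the array that stands apart included. In uMT mice Zbp1 was at -0.23, -0.94 and -0.30 before operation, -0.89, -0.19 and -0.09 at sham day 7 and -0.46, -1.69 and -2.04 at sham day 42. It was at 0.58, -0.05 and -1.01 after CaCl2 at day 7 and 0.38, -0.24 and -0.29 at day 42. Here the unoperated arrays lay inside the range of the operated ones, and unoperated uMT arrays all lay above unoperated WT arrays. The order of the genotypes was the opposite at sham day 7 and after CaCl2 at both times, again without overlap. Zbp1 differed by -0.83 ± 0.21 on average (adjusted p = 0.0303), or -0.92 ± 0.20 without the array that stands apart (adjusted p = 0.00406). A second, dimmer kept probe of Zbp1 (A_66_P139683), well above background on 4 arrays, gave -0.16 ± 0.27 on average. It gave 0.41 ± 0.61 at sham day 7, and -1.20 ± 0.61 and 0.25 ± 0.61 at CaCl2 days 7 and 42. The average call was lost in 15 of 41 alternatives, the mean of a gene's kept probes among them.

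Oas3 makes the oligoadenylates that activate RNase L. It was a dim probe, well above background on 8 WT and 2 uMT arrays, and on none in 4 groups, namely both unoperated groups and both day 42 groups of uMT mice. Measured WT levels were -6.26, -6.57 and -6.30 before operation, -3.05, -3.74 and -3.18 at sham day 7 and -4.04, -2.86 and -3.74 at sham day 42. CaCl2 gave -2.19, -2.06 and -1.93 at day 7 and -4.003, -3.31 and -3.50 at day 42. Operated and unoperated WT arrays did not overlap. Measured uMT levels were -4.99, -4.61 and -6.54 before operation, -4.84, -3.68 and -5.60 at sham day 7 and -5.70, -4.46 and -3.68 at sham day 42. After CaCl2 they were -2.94, -3.79 and -4.57 at day 7 and -4.52, -5.14 and -5.61 at day 42. The genotypes separated after CaCl2 at both times. The fitted average difference was -0.93 ± 0.24 (adjusted p = 0.0354), or -0.86 ± 0.24 without WT sham day 42 replicate 2 (adjusted p = 0.0135), and it rests partly on these dim values.

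Oas2, another oligoadenylate synthase, is given for its CaCl2 response. Its WT levels were -0.63, -0.27 and 1.17 before operation, 1.92, 1.82 and 1.88 at sham day 7 and -0.29, -1.71 and 1.11 at sham day 42. CaCl2 arrays had 3.15, 3.0 and 3.01 at day 7 and 1.81, 2.38 and 1.48 at day 42. Its uMT levels were 0.061, -0.74 and -0.12 before operation, 0.99, 1.45 and 2.19 at sham day 7 and 0.86, -0.54 and -0.60 at sham day 42. After CaCl2 they were 2.93, 2.85 and 1.23 at day 7 and 1.12, 1.27 and 1.05 at day 42. In both genotypes the highest levels fell in the CaCl2 day 7 group. The WT rise at day 42 was 2.19 ± 0.56 (adjusted p = 0.0146), and 1.48 ± 0.54 and not called without WT sham day 42 replicate 2 (adjusted p = 0.0741). The other 5 of this group ranged from -1.11 ± 0.33 (Oasl1) to -0.29 ± 0.22 (Ifih1) in the average, and none was called with all arrays. The place of Ifih1 depended on the probe. Its other, dimmer kept probe, well above background on 11 arrays, gave -0.91 ± 0.19.

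The ubiquitin-like modifier Isg15, the protease Usp18 that removes it, and the exonuclease Isg20 gave 1 call of 3. Isg15 in WT aorta was at -0.46, -0.80 and -0.077 before operation, 0.55, 0.21 and 1.4 at sham day 7 and -0.29, 0.031 and 1.56 at sham day 42. After CaCl2 it was at 3.27, 2.70 and 3.12 at day 7 and 0.91, 2.02 and 1.63 at day 42. Day 7 CaCl2 arrays of WT mice were above every other WT array. Isg15 in uMT aorta was at -0.38, -0.91 and 0.25 before operation, -0.48, -0.037 and 0.32 at sham day 7 and -0.18, -0.38 and -0.66 at sham day 42. After CaCl2 it was at 2.94, 1.78 and 0.54 at day 7 and 0.37, 0.37 and -0.0035 at day 42. The uMT arrays at CaCl2 day 7 spread over more than 2 units, and only CaCl2 day 42 separated the genotypes. Its average difference was -0.82 ± 0.22 (adjusted p = 0.0443), or -0.86 ± 0.22 without WT sham day 42 replicate 2 (adjusted p = 0.0103), and it was called in 14 of 41 alternatives. Isg15 rose after CaCl2 at day 7 by 2.31 ± 0.49 in WT (adjusted p = 0.00815), while the uMT difference of 1.81 ± 0.49 was called only without that array (adjusted p = 0.0737 and 0.0263). Usp18 was at -0.90 ± 0.31 and Isg20 at -0.091 ± 0.22 in the average, neither called with all arrays. Without that array Usp18 was called lower at -1.11 ± 0.26 (adjusted p = 0.00567), and Isg20 was at -0.29 ± 0.12 and not called (adjusted p = 0.0806).

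Of the 4 membrane proteins that hinder virus entry or release, Ifitm1, Ifitm3, Ifitm6 and Bst2, none was called in the average with all arrays. Ifitm6 alone was called without WT sham day 42 replicate 2, lower at -0.98 ± 0.31 (adjusted p = 0.0249). Ifitm6 is a further member of the Ifitm family, and its probe was well above background on 14 WT and 12 uMT arrays. Its WT levels were -1.80, -1.60 and -2.58 before operation, -0.88, -0.59 and -1.34 at sham day 7 and -0.96, -3.67 and -1.03 at sham day 42. WT aorta after CaCl2 had -0.77, -0.70 and 0.065 at day 7 and -0.52, -0.12 and 0.77 at day 42. WT sham day 42 replicate 2 was again the lowest WT array. In uMT aorta Ifitm6 was at 0.037, -0.67 and -0.59 before operation, -1.17, -0.95 and -1.22 at sham day 7 and -1.998, -5.20 and -5.03 at sham day 42. After CaCl2 uMT levels were -0.81, -1.58 and -3.83 at day 7 and -2.32, -1.24 and -1.18 at day 42. All 3 unoperated uMT arrays lay above the unoperated WT arrays, and above every operated uMT array. The lowest 3 values were on uMT arrays of sham day 42 and CaCl2 day 7.

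Bst2, or tetherin, holds budding virus at the cell surface. WT levels of Bst2 were 1.02, 0.49 and 1.19 before operation, 0.062, 0.016 and 1.88 at sham day 7 and 0.93, -0.089 and 1.75 at sham day 42. They were 2.97, 3.06 and 3.68 at day 7 and 1.73, 1.42 and 2.13 at day 42 after CaCl2. The uMT levels were 1.66, 1.06 and 1.18 before operation, -0.17, -0.17 and 0.24 at sham day 7 and 1.001, -0.46 and 0.038 at sham day 42. After CaCl2 they were 3.10, 2.02 and 1.78 at day 7 and 1.86, 1.53 and 1.37 at day 42. CaCl2 and sham arrays at day 7 did not overlap in WT, and in uMT all CaCl2 arrays also lay above all sham arrays. Bst2 rose by 2.59 ± 0.48 in WT (adjusted p = 0.00391) and by 2.33 ± 0.48 in uMT aorta (adjusted p = 0.0247), and it was the only member called at day 7 in both genotypes. The adjusted p were 0.00109 and 0.00515 without WT sham day 42 replicate 2.

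Ifitm1 acts on virus fusion at the plasma membrane. In WT aorta it was at -1.46, -0.94 and -1.18 before operation, -0.83, -0.32 and -0.92 at sham day 7 and -0.71, -1.97 and -1.20 at sham day 42. After CaCl2 it was at 1.43, 0.95 and 2.46 at day 7 and 1.31, 2.16 and 1.26 at day 42. In uMT aorta it was at -1.67, -2.33 and -1.75 before operation, -0.54, -0.55 and -0.52 at sham day 7 and -0.55, -0.96 and -1.13 at sham day 42. After CaCl2 it was at 1.98, 0.079 and 0.029 at day 7 and 0.49, 0.91 and 0.93 at day 42. No CaCl2 array overlapped with a sham array of the same day and genotype. Ifitm1 rose in WT by 2.30 ± 0.43 at day 7 (adjusted p = 0.00399) and 2.87 ± 0.43 at day 42 (adjusted p = 0.000305). In uMT aorta it rose by 1.66 ± 0.43 at day 42 (adjusted p = 0.0208), and its day 7 difference of 1.23 ± 0.43 was not called (adjusted p = 0.162). Without the array that stands apart the 3 calls had adjusted p of 0.00148, 0.00150 and 0.00858.

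The dynamin-like GTPases Mx1 and Mx2, which block viral replication complexes, had average differences of -1.06 ± 0.40 and -0.64 ± 0.23 that were not called (adjusted p = 0.154 and 0.143). Laboratory C57BL/6 mice carry a defective Mx1 gene, and the RNA of both genes is read here as a measure of the response only. Mx1 was called lower without WT sham day 42 replicate 2 (adjusted p = 0.0261), and Mx2 was not (adjusted p = 0.0767).

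None of the 7 GTPases that respond mainly to type II interferon (Gbp2, Gbp3, Gbp6, Igtp, Irgm1, Iigp1 and Ifi47) was called in the average. These proteins attack the membranes around pathogens inside the cell. Their median was -0.26, and without WT sham day 42 replicate 2 Irgm1 and Ifi47 were called lower and Gbp6 higher. Gbp6 was the only member whose kept probes disagreed in sign in the genotype average, with 1.14 at the brighter probe (A_55_P2052380) and -1.19 at the other (A_55_P2052385). The brighter probe read 9.89 on WT sham day 42 replicate 2 against 4.34 and 2.80 on its group mates. On the other 5 arrays with under 50% of spots well above background, all of uMT mice, it read 5.81, 8.10, 6.81, 9.36 and 7.84. On the remaining 24 arrays it ran from 1.47 to 6.65. The part of array brightness in the reading of Gbp6 was not tested.

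Among the genes of antigen processing, Tap1, which carries peptides to MHC class I, was called with all arrays, and the immunoproteasome subunits Psmb8 and Psmb9 were not. In WT aorta Tap1 was at -2.10, -1.88 and -1.85 before operation, -1.03, -1.71 and -1.68 at sham day 7 and -1.59, -2.92 and -0.90 at sham day 42. CaCl2 arrays of WT mice had -0.60, -1.38 and -0.80 at day 7 and -1.01, -1.61 and -1.06 at day 42. In uMT aorta it was at -2.40, -3.92 and -0.67 before operation, -2.18, -2.48 and -2.97 at sham day 7 and -1.55, -3.19 and -4.54 at sham day 42. CaCl2-treated uMT aorta had -2.63, -1.58 and -3.10 at day 7 and -3.62, -2.68 and -1.85 at day 42. The 3 unoperated uMT arrays spanned over 3 units and enclosed the WT arrays, and the genotypes separated at sham day 7 and after CaCl2 at both times. The average difference was -1.15 ± 0.31 (adjusted p = 0.0431), or -1.26 ± 0.30 without WT sham day 42 replicate 2 (adjusted p = 0.00675). This call was lost in 31 of 41 alternatives, so Tap1 is the least firm of the 9. Its probe was well above background on 14 WT and 11 uMT arrays. Psmb8 and Psmb9 were at -0.16 ± 0.29 and -0.17 ± 0.14. Psmb8 was called lower without WT sham day 42 replicate 2, at -0.44 ± 0.14 (adjusted p = 0.0255), and Psmb9 was not called (adjusted p = 0.177).

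The chemokines Cxcl9 and Cxcl10, which draw T cells through the receptor Cxcr3, varied widely between arrays of 1 group. Cxcl10 in WT mice was at -4.31, -5.77 and -2.05 before operation and 3.03, -2.23 and 1.38 at sham day 7, and in uMT mice at -3.76, -4.60 and -0.023 before operation and -2.29, -0.19 and -0.21 at sham day 7. The 3 WT sham day 7 arrays were thus over 5 units apart. Cxcl9, Stat2 and Isg20 had the largest p of all members in the average, at -0.059 ± 0.62, -0.053 ± 0.20 and -0.091 ± 0.22 (adjusted p = 0.978, 0.942 and 0.897).

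Whether the genotype difference depended on condition was tested over all 5 conditions at once. No member passed (1.84% of all genes did), 5 had an unadjusted p under 0.05, and Zbp1 had the smallest adjusted p (0.0633), followed by Ifi35 (0.0853) and Oas3 (0.151). With WT sham day 42 replicate 2 left out, 9 members passed, against 23.2% of all genes, namely Zbp1, Ifitm3, Ifitm6, Ifi35, Isg20, Ifih1, Psmb8, Psmb9 and Oas3. The 9 are 22.0% of the members, a share close to that of all genes. The count was 3 without uMT sham day 42 replicate 1 and 1 without WT sham day 42 replicate 3, uMT unoperated replicate 3 or uMT CaCl2 day 7 replicate 1.

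A narrower contrast, chosen after the values were seen, set the mean of the 4 operated groups against the unoperated group. In WT aorta 21 of 41 members rose, against 7.89% of all genes, and none fell. In uMT aorta 6 rose (9.57% of all genes) and 2, Ifi35 and Ifitm6, fell (12.6% of all genes). The 6 that rose in uMT aorta were Ifitm1, Irf8, Oas2, Mx2, Ifi44 and Mx1, and each of them also rose in WT aorta. The median member difference was 1.11 in WT and 0.40 in uMT aorta, against 0.015 and -0.071 for all genes. Leaving out WT sham day 42 replicate 2, 29 members rose in WT (12.7% of all genes), and in uMT 8 rose and 3 fell (16.5% and 24.4% of all genes). The WT count was 11 without unoperated WT replicate 2, and the uMT count was 3 without unoperated uMT replicate 1 or 2. Cxcl10 rose by 4.88 ± 1.18 in WT aorta and Mx1 by 3.75 ± 0.71, with uMT differences of 2.17 ± 1.18 (not called) and 1.997 ± 0.71 (called).

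**Figure D4:**
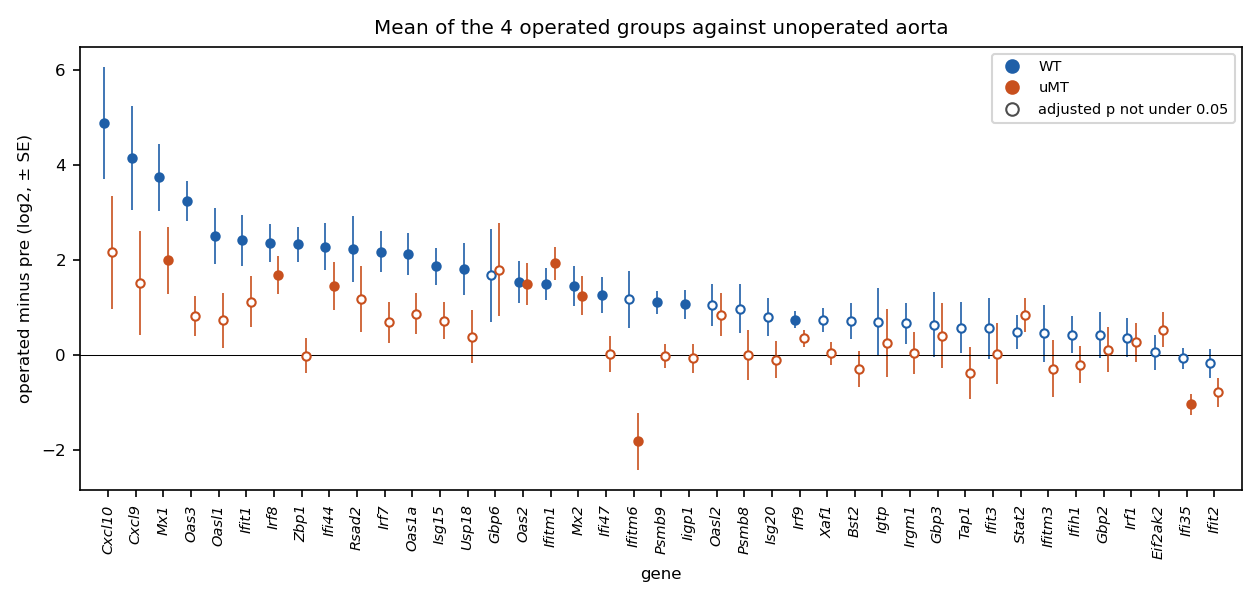
Mean of the 4 operated groups minus the unoperated group (log2, ± standard error of the fit) for each member in WT (blue) and uMT (orange) aorta, ordered by the WT value. Filled points have an adjusted p under 0.05, which is 21 WT and 8 uMT points. For 37 of 41 genes the orange point lies below the blue one.

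The genotypes' operated-minus-unoperated differences were compared directly. The comparison was called for 3 members, all lower in uMT, against 4.82% of all genes (3.10% lower), and the median over members was -0.90 against -0.11 for all genes. These 3 were Zbp1 at -2.34 ± 0.52 (adjusted p = 0.0153), Oas3 at -2.41 ± 0.60 (adjusted p = 0.0238) and Ifitm6 at -2.99 ± 0.85 (adjusted p = 0.0435). Zbp1 rose by 2.34 ± 0.37 in WT and stood at -0.0072 ± 0.37 in uMT aorta. Ifitm6 was at 1.18 ± 0.60, not called, in WT and fell in uMT aorta (-1.81 ± 0.60). It was well above background on 12 of 15 uMT arrays, so its values rest partly on dim readings. Its lowest levels, -5.20 and -5.03, were on uMT sham day 42 replicates 2 and 3, which had 48.8% and 46.8% of spots well above background. Oas3 was at least 2.39-fold higher in operated than in unoperated WT aorta, where it was not well above background, with measured means of -3.13 and -6.38 and an adjusted p of 1.34e-05. Without WT sham day 42 replicate 2, 10 members were called, all lower, against 14.7% of all genes. The count was 1 without unoperated WT replicate 1 or 2 or unoperated uMT replicate 2, and 0 without unoperated WT replicate 3 or unoperated uMT replicate 1. With slide as a random block all 3 calls were lost, 0 of all genes were called and the median of the members was -0.33. That block without WT sham day 42 replicate 2 gave 18 called members, against 25.8% of all genes.

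Unoperated and sham aortas of 1 genotype could also be compared within a slide. On the slide that held all unoperated and sham day 7 arrays of WT mice, 38 of 41 members were higher after sham operation, with a median of 0.94 against -0.017 for all genes. Irf7 was higher there by 2.05, Mx1 by 3.49 and Cxcl10 by 4.77. On the slide that held 2 unoperated and all 3 sham day 7 arrays of uMT mice, 31 of 41 members were higher, with a median of 0.30 against -0.050. Irf7 was higher on it by 0.86, Mx1 by 1.88 and Cxcl10 by 1.42. At sham day 42 on that uMT slide 19 of 41 were higher, with a median of -0.036 against -0.047. These within-slide values carry no test.

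CaCl2 against sham gave mostly higher values of the members in both genotypes. In WT aorta at day 7, 3 of 41 were called, all higher (Bst2, Ifitm1 and Isg15), against 6.59% of all genes (2.98% higher), and the median was 0.87 with 40 above 0. At day 42, 9 were called, all higher, against 10.4% of all genes (6.79% higher), and the median was 1.29 with 37 above 0. These were Ifitm1, Irf8, Oas2, Ifih1, Isg20, Zbp1, Oas1a, Psmb9 and Psmb8. Without WT sham day 42 replicate 2 only Ifitm1 and Irf8 were called at day 42 (12.3% of all genes, 7.14% higher), and the median was 0.50, while 8 were called at day 7, all higher (18.4% of all genes, 9.31% higher). The day 42 count was 15 without WT sham day 42 replicate 1, 27 without replicate 3, and 2 and 3 without WT CaCl2 day 42 replicates 2 and 3. On the 1 slide that held CaCl2 and sham arrays of day 42, with 3 and 1 arrays, Ifitm1 was higher by 2.78 and Irf8 by 2.10, but the median of the members was 0.029 and 23 were above 0. For 7 of the 9 genes the day 42 call thus needed the sham array that stands apart. Markers of other cell types moved beside these values. Of 6 smooth muscle markers 5 were lower after CaCl2 at each day (medians -2.43 and -1.94), and 6 and 4 without that array. Of 9 macrophage markers 1 rose and 1 fell at day 7, and 7 rose at day 42 (median 2.47), or 3 without that array (median 1.16). Of 6 neutrophil markers 1 rose at day 7 (median 2.34), or 4 without that array, and 2 rose at day 42 (median 1.45), or 3. No dendritic, B or T and NK cell marker was called at day 7 with all arrays. At day 42, 7 of 9 plasmacytoid dendritic, 3 of 9 B and 4 of 10 T and NK cell markers rose, or 6, 3 and 2 without that array. Of 5 conventional dendritic cell markers 3 rose and 1 fell.

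In uMT aorta Bst2 alone was called at day 7, against 0.894% of all genes (0.503% higher), with a median of 0.44 and 30 members above 0. At day 42 Ifitm1, Irf8 and Ifitm6 were called, all higher, against 6.33% of all genes (4.62% higher), with a median of 0.52 and 34 above 0. Ifitm6 rose by 2.497 ± 0.76 (adjusted p = 0.0496), and its day 42 CaCl2 and sham arrays overlapped. Over all conditions its probe was well above background on 12 of 15 uMT arrays. Without WT sham day 42 replicate 2, which enters only through the pooled spread, 5 members were called at day 7 (9.82% of all genes), 4 higher and Ifi35 lower (4.89% and 4.93% of all genes), and 7 at day 42, all higher (8.87% of all genes were higher). The day 7 count was 0 without any 1 uMT sham day 7 array or uMT CaCl2 day 7 replicate 1, and 2 without WT sham day 42 replicate 3 or uMT CaCl2 day 7 replicate 3. The day 42 count was 0 without uMT sham day 42 replicate 2 or 3 or CaCl2 day 42 replicate 2, 1 without CaCl2 day 42 replicate 1 or 3, and 6 without uMT sham day 42 replicate 1. In uMT aorta none of the 6 smooth muscle markers was called at day 7 (median -0.90) and 1 was lower at day 42 (median -1.86), or 4 without that array. Of the 9 macrophage markers 1 fell at day 7, and 3 rose at day 42 (median 2.14), or 8 without that array. At day 7, 1 of 9 plasmacytoid dendritic cell markers fell, and no neutrophil, conventional dendritic, B or T and NK cell marker was called with all arrays. At day 42, 3 of 6 neutrophil, 4 of 5 conventional dendritic, 4 of 10 T and NK and 2 of 9 plasmacytoid dendritic cell markers rose, with 0 of 9 B cell markers called. The part of these markers in the responses was not tested. No slide held CaCl2 and sham arrays of uMT mice, so slide and treatment cannot be told apart there. In WT mice at day 7 the treatments also lay on different slides. With slide as a fixed block, estimated through the sham day 42 arrays, the median was -0.027 and 0 members were called (0.331% of all genes).

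**Figure D5:**
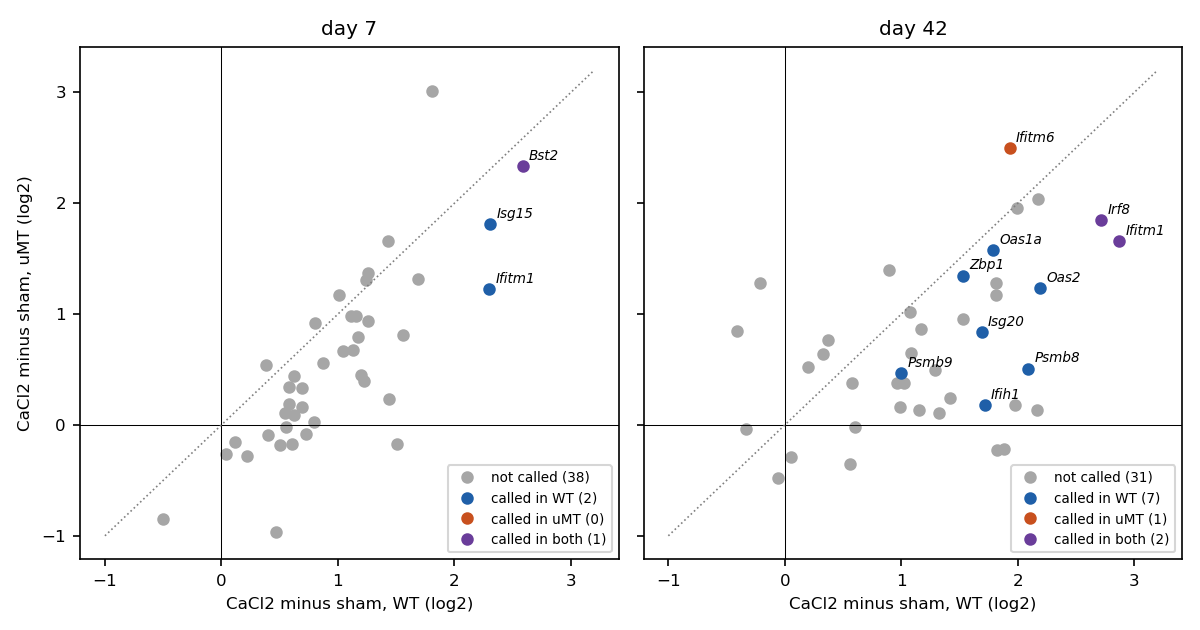
CaCl2 minus sham difference (log2) of the 41 members in WT (horizontal) and uMT (vertical) aorta at day 7 (left) and day 42 (right), with members called in 1 or both genotypes coloured and the dotted line marking equal values. At day 7 Bst2 is called in both, and at day 42 Irf8 and Ifitm1 are.

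The CaCl2 response itself was not shown to differ between genotypes for any member. At day 7 limma called 0 members (0 of all genes), 0 had an unadjusted p under 0.05, and the median difference of the responses was -0.38. At day 42 it called 0 members (0.107% of all genes), 1 had an unadjusted p under 0.05 (Ifih1, at -1.54 ± 0.68), and the median was -0.57. Without WT sham day 42 replicate 2 both counts stayed at 0 (0 and 0.447% of all genes), and the day 42 median was -0.088. With slide as a random block both medians changed sign, to 0.55 at day 7 and 0.68 at day 42, again with 0 called (0 of all genes). The within-slide correlation behind that block was 0.782 with WT sham day 42 replicate 2 and -0.0687 without it. The block without that array also gave 0 called members at both days (0.202% and 0.696% of all genes). A miss of the threshold at 3 arrays a group does not show that the responses were alike.

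Other genes of the pathway were counted from lists that include no member. Of 19 interferon genes 8 passed the filter on dim probes and none was called in the average, with a median of -0.045. Ifnb1 and Ifng, the type II interferon, were on the array but did not pass the filter, so neither was compared. None of 11 receptor, Jak and Stat genes was called (median -0.066), among them Ifnar1 at -0.068 ± 0.17 and Ifnar2 at -0.083 ± 0.15. None of 17 genes that sense nucleic acids or induce interferon (median -0.21) and none of 10 negative regulators (median -0.067) was called. Of 56 other interferon-induced genes 48 were below 0, with a median of -0.19, and 1 was called, Cmpk2, a mitochondrial nucleotide kinase, at -0.65 (adjusted p = 0.0447). After removal of WT sham day 42 replicate 2 the calls were 1 higher of 8 interferon genes, 1 lower of 11 receptor and Stat genes, 7 lower of 17, 1 higher and 2 lower of 10, and 2 higher and 23 lower of 56, against 12.5% higher and 13.4% lower of all genes.

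Markers of leukocytes moved beside these genes. Of 9 measured B cell markers 5 were called lower in uMT mice on average, among them Ms4a1, Cd79a, Fcrla and Pou2af1, and the mean level of the 9 ran from -3.84 to -0.73 over WT arrays and from -3.93 to -2.62 over uMT arrays. Ms4a1 and Pou2af1 were not well above background on any uMT array, and Pou2af1 was so in no unoperated WT aorta either. Of 9 genes listed as markers of plasmacytoid dendritic cells, a cell type that makes much type I interferon, 1 was called lower (Ly6d). Whether Ly6d marks these cells alone was not tested. The mean level of the 9 ran from -1.44 to 1.71 in WT and from -1.08 to 0.85 in uMT mice. None of 9 macrophage markers was called in the average, with mean levels from -0.47 to 3.88 in WT and from 0.082 to 3.49 in uMT mice. In WT aorta 7 of the 9 rose after operation, beside the 21 members, and 2 of 9 did in uMT aorta, while 1 fell in each. For B cell markers these counts were 6 and 0 of 9 and for plasmacytoid dendritic cell markers 7 and 5 of 9, and 7 of 10 T and NK cell markers rose in WT and 1 of 10 in uMT aorta. In the CaCl2 day 7 comparison, where 40 of 41 members were below 0 in uMT against WT aorta, so were 8 of 9 macrophage markers (median -1.16), 5 of 5 conventional dendritic cell (median -1.33), 7 of 9 plasmacytoid dendritic cell (median -1.06), 5 of 6 neutrophil (median -1.08) and 9 of 10 T and NK cell markers (median -0.92). With all arrays none of these was called. Of the 9 B cell markers 8 were below 0 (median -1.72) and 3 were called. The 6 smooth muscle markers were all above 0 there (median 1.22), and none was called. In the CaCl2 day 42 comparison 39 of 41 members were below 0. There 5 of 9 macrophage (median -0.22), 3 of 5 conventional dendritic cell (-0.15), 6 of 10 T and NK cell (-0.17) and 1 of 6 neutrophil markers (0.50) were below 0. With all arrays none of these was called. Below 0 there were also 7 of 9 plasmacytoid dendritic cell markers (median -0.93, 2 called) and 8 of 9 B cell markers (median -2.29, 3 called). None of 6 neutrophil, 5 conventional dendritic cell, 10 T and NK cell, 6 endothelial and 6 smooth muscle markers was called in the average.

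The marker counts also moved when WT sham day 42 replicate 2 was left out. In the average 6 B cell markers were then lower and 1 higher, 2 plasmacytoid dendritic cell markers lower and 1 higher, and 1 macrophage marker lower. Neutrophil, T and NK cell and endothelial markers had 1 higher and 1 lower each, and conventional dendritic cell and smooth muscle markers had none. At CaCl2 day 7, beside the 2 members, 4 B cell, 2 plasmacytoid dendritic cell, 1 macrophage and 1 T and NK cell markers were lower. At CaCl2 day 42, beside the 11 members, 6 B cell and 4 plasmacytoid dendritic cell markers were lower. There 1 neutrophil marker was higher and 1 lower, and no macrophage, conventional dendritic cell or T and NK cell marker was called. At sham day 42, beside the 13 members, 5 of 9 macrophage markers were lower (median -1.62), against 1 with all arrays (median -0.75). In the difference of operated against unoperated aorta between genotypes, beside the 10 members, 7 of 9 macrophage markers were lower (median -1.64), against 0 with all arrays (median -1.55). T and NK cell markers gave 4 of 10 there, against 1, and B cell markers 3 of 9, against 2, all lower. The dependence on condition was called for 7 of 9 macrophage and 6 of 9 B cell markers, against 1 of each with all arrays. After operation 8 macrophage markers rose and 1 fell in WT aorta, and 3 rose and 1 fell in uMT aorta. In these bulk samples fewer cells of a type and less RNA per cell cannot be told apart, and the part of the markers of other cell types in the results was not tested.

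The average count of 9 called members changed by over 1.5 times when single arrays were left out. It was 24 without WT sham day 42 replicate 2 and 3 without WT CaCl2 day 7 replicate 3. It was 4 without WT unoperated replicate 1, WT sham day 7 replicate 1, WT CaCl2 day 42 replicate 3, uMT unoperated replicate 2, uMT sham day 7 replicate 1, uMT sham day 42 replicate 3 or uMT CaCl2 day 7 replicate 3. It was 5 without WT unoperated replicate 2, WT sham day 7 replicate 3, WT CaCl2 day 7 replicate 2, WT CaCl2 day 42 replicate 2, uMT sham day 7 replicate 3, uMT sham day 42 replicate 2 or uMT CaCl2 day 42 replicate 2. In none of the alternatives run did any of the 9 differences change sign.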

How the data were processed

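RNA of mouse aorta was extracted with TRIzol, per the labels' protocols, and hybridised to 30 one-colour Agilent arrays of 55681 probes. The scanner files hold the linear intensity of each spot as the authors deposited it, processed by Feature Extraction 10.7.1.1 per the file headers (9.5.1.1 per the submitters' processing notes). The authors' deposited table of quantile-normalized intensity values was used as an alternative only.

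Here the log2 of each processed signal was taken and the array's 75th percentile subtracted, 24 probes flagged on any array were left out, and spots of a probe were averaged. A probe was kept if well above background on all 3 arrays of at least 1 group (33228 of 55657), and the brightest kept probe stood for its gene. A group-means model over all 30 arrays was fitted with limma 3.58.1 in R 4.3.3 (20 residual degrees of freedom, or 19 without WT sham day 42 replicate 2), and p-values were adjusted by Benjamini-Hochberg over the 23268 genes of a comparison at 0.05. On simulated data for the genotype average, changes of 1 log2 unit were recovered at 75% and of 2 units at 97%, with 9 false calls of 181. The simulated noise was independent between arrays, with no slide effect and no array that stood apart. These rates therefore need not hold for the measured arrays. Alternatives were quantile scaling, normexp with an offset of 50, the authors' table, other filters, slide as a block, the replicate block, the compared groups alone and each array left out. Values array by array are given for members called in a genotype comparison and for up to 3 members with the smallest adjusted p in each comparison of CaCl2 with sham, and pathway genes are named where called in the average. Cxcl10, Gbp6 and the receptors are examples chosen after their values were seen. The members and lists were chosen with earlier results of these data known. The number of arrays limits the precision. Some single genes of the pathway and marker lists are not reported here.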

Additional observations from a re-analysis of the deposited data

Results flagged for a closer look

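For 3 members the change from unoperated to operated aorta differed between uMT and WT mice by a test of that difference (limma, adjusted over all genes). These were Ifitm6 at -2.99 (adjusted p = 0.0435), Oas3 at -2.41 (adjusted p = 0.0238) and Zbp1 at -2.34 (adjusted p = 0.0153), each with the uMT change the lower. The contrast was chosen after the values were seen. With slide as a random block all 3 calls were lost: 0 members and 0 of all genes were called, and the median of the members was -0.33. That block without WT sham day 42 replicate 2 gave 18 called members, against 25.8% of all genes. Unoperated uMT arrays lay above all unoperated WT arrays for Ifitm6 and Zbp1, so the starting level takes part in these differences. Oas3 was not well above background in unoperated aorta of either genotype, and Ifitm6 was so on 12 of 15 uMT arrays only. Unoperated WT aorta lay on 1 slide and unoperated uMT aorta on 2 others, so genotype and slide cannot be told apart here.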

How the results depend on the processing

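Over all alternatives and arrays left out, 543 counts of called members stayed within 1.5 times the main count and 129 did not, and of the 9 members called in the genotype average 248 values kept their call, 120 lost it and none changed sign. The cause of these changes was not tested. With no filter on dim probes the genotype average gave 4 called members, CaCl2 day 42 gave 0, CaCl2 against sham gave 5 in WT at day 42 and 0 in uMT at day 7, and operated against unoperated uMT aorta gave 4. Quantile scaling and the authors' table each gave 4 in that last comparison. Normexp gave 5 for CaCl2 against sham in WT at day 7, and a filter of at least 15 arrays gave 0 at CaCl2 day 42. Shares of all genes are not reported here for these settings or the replicate block. The same holds for single arrays left out, other than WT sham day 42 replicate 2, so these counts show only how far the calls moved. With slide as a random block (correlation 0.782) the genotype comparisons gave 0 in the average (0.00860% of all genes). They also gave 0 at sham day 42 and at CaCl2 day 42 (0 of all genes in both). CaCl2 against sham then gave 0 and 2 in WT (0.228% and 4.58% of all genes) and 0 and 0 in uMT (0 of all genes in both) at days 7 and 42. Operated against unoperated gave 7 in WT (6.83%), 0 in uMT (0.0946%) and 0 for their difference (0 of all genes). The same block without WT sham day 42 replicate 2 (correlation -0.0687) gave 33 in the average (45.7% of all genes), 18 at sham day 42 (38.5%), 12 and 18 at CaCl2 days 7 and 42 (8.08% and 23.9%) and 13 for the dependence on condition (35.4%). For CaCl2 against sham at days 7 and 42 it gave 16 and 3 in WT (25.9% and 13.5%) and 7 and 9 in uMT (17.6% and 21.0%), and for operated against unoperated 33 in WT (24.6%) and 18 for the difference (25.8%). Slide as a fixed block gave 0 at sham day 42 (0.0258% of all genes), and 0 and 2 for CaCl2 against sham in WT at days 7 and 42 (0.331% and 4.11%). It could not be estimated for the average, the CaCl2 genotype comparisons or uMT responses. The compared groups alone gave 0 at sham day 42 (0 of all genes) and 1 at CaCl2 day 42 (0.898%), and for CaCl2 against sham 23 and 0 in WT (33.7% and 0 of all genes) and 0 and 1 in uMT (0 and 2.66%) at days 7 and 42. An alternative chosen after seeing the data left out the 6 arrays that had under 50% of spots well above background. Apart from WT sham day 42 replicate 2 these were all of uMT mice. The counts were then 4 in the average (1.06% of all genes), 0 at sham day 42 (0.202%), 10 and 0 at CaCl2 days 7 and 42 (4.68% and 1.13%) and 3 for the dependence (4.04%). CaCl2 against sham then gave 9 and 3 in WT (23.9% and 17.3%) and 7 and 0 in uMT (3959 genes and 45 genes in all), and operated against unoperated gave 32 in WT (24.9%) and 11 for the difference (12.7%).

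Replicate numbers did not pair the arrays: over 135 same-numbered pairs the deviations from group means correlated at -0.50 to 0.457 (median -0.041), and 5 of 30 arrays correlated best with their own number. With the replicate block the average gave 6, CaCl2 day 42 gave 0 and the difference of operated against unoperated gave 2, and no other count changed.

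Leaving out each array in turn gave 3 to 24 called members in the genotype average, 0 to 0 in unoperated and sham day 7 aorta, 0 to 13 at sham day 42, 0 to 5 and 0 to 11 at CaCl2 days 7 and 42, 0 to 9 for the dependence and 0 to 0 for the response differences. CaCl2 against sham gave 2 to 8 and 2 to 27 in WT and 0 to 5 and 0 to 7 in uMT at days 7 and 42. Operated against unoperated gave 11 to 29 in WT, 3 to 11 in uMT and 0 to 10 for the difference. Signal over background limits Oas3 most, well above background on 10 of 30 arrays.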
